A study of Homo sapiens with 23 samples.

Results

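Steady state RNA levels of long noncoding RNAs with regulatory or miRNA-binding roles were followed in HCT116 cells that lack AGO proteins. The set holds 10 RNAs chosen by symbol: *MALAT1*, *NEAT1*, *NORAD*, *OIP5-AS1*, *TUG1*, *KCNQ1OT1*, *H19*, *UCA1*, *PVT1* and *CCAT1*. Matching symbols to Ensembl identifiers found 9 of the 10 among the 57875 genes listed in each sample. *CCAT1* had no matching identifier and was not analysed here. Of the 9, 8 are classed as lncRNA in GENCODE v44, and *TUG1* is classed there as protein coding. The study asked what individual AGO proteins contribute to gene expression in the colon cancer cell line HCT116. RNAseq covered 5 lines with 3 biological replicates each, 15 samples in all, and every line was grown in the same medium. The lines were wild-type (WT) HCT116 and derivatives of it in which both alleles were lost of *AGO1*, of *AGO2*, of *AGO1* and *AGO2* (*AGO1/2*), or of *AGO1*, *AGO2* and *AGO3* (*AGO1/2/3*). Each genotype is represented by 1 line, so a genotype and a line cannot be told apart.

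AGO proteins carry miRNAs, which pair through their seed bases with target RNAs and lower their translation or stability. Some lncRNAs hold many copies of a miRNA or protein recognition motif and are known for binding these factors, some build nuclear bodies, and others act on the chromosome they are transcribed from. Because such RNAs are targets or hosts of miRNAs in some cases and wholly nuclear in others, their levels in cells without AGO proteins are informative one by one.

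The knocked-out genes were examined first, in library-scaled CPM with TMM factors (CPM below). Total counts per sample ran from 27709971 to 45271146, with a median of 30701840. *AGO1* measured 138, 108 and 146 CPM in the WT replicates 1, 2 and 3. The *AGO1* line had 34.4, 32.2 and 39.5, the *AGO1/2* line 35.5, 37.8 and 36.6 and the *AGO1/2/3* line 35.5, 33.1 and 28.7. Every library labelled as lacking *AGO1* lay below every library that keeps the gene. *AGO3* measured 100.03, 130.4 and 107 CPM in WT cells against 51.8, 57.4 and 46.1 in *AGO1/2/3* knockout cells, again without overlap. Log2 fold changes of *AGO1* were -1.89, -1.84 and -2.01 in the lines without *AGO1*, without *AGO1* and *AGO2*, and without all 3, and that of *AGO3* was -1.12 in the last (quasi-likelihood test of edgeR, Benjamini-Hochberg adjustment over 22842 genes, adjusted p at most 3.41e-06, 3 of 3 samples below WT each time).

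*AGO2* RNA behaved otherwise. Its level was 379, 459 and 382 CPM in WT cells and 262, 314 and 283 after *AGO2* knockout. The *AGO1/2* line had 321, 332 and 365 CPM, and the *AGO1/2/3* line 518, 557 and 538. The *AGO2* and *AGO1/2* libraries lay below the WT libraries, while those labelled as the *AGO1/2/3* knockout lay above them. The log2 fold changes were -0.51 (SE 0.10, edgeR adjusted p = 0.00518), -0.26 (SE 0.10, adjusted p = 0.0924) and 0.40 (SE 0.10, adjusted p = 0.00477). The second was called lower with counts scaled by totals alone (-0.35, edgeR adjusted p = 0.0204) and by the Wald test of DESeq2 (-0.27, adjusted p = 0.0440). RNA can persist after an edit that removes the protein, and the edited bases cannot be read from gene counts, so *AGO2* RNA does not check its label. DNA sequencing and Western blots of these lines were done by the authors, and the count files hold neither. The lines are called below by their labels. *AGO4*, the paralogue left in place, measured 21.9, 28.5 and 24.8 CPM in WT cells and 69.4, 59.1 and 55.9 in *AGO1/2/3* knockout cells, a log2 fold change of 1.29 (SE 0.23, edgeR adjusted p = 0.000346), with no overlap. After *AGO2* knockout it measured 20.3, 10.8 and 15.2 CPM and was called lower (-0.70, SE 0.23, edgeR adjusted p = 0.0457, 3 of 3 samples below WT). That call was lost without WT replicate 2 or 3, *AGO1* knockout replicate 2, *AGO2* knockout replicate 2 or 3, *AGO1/2* knockout replicate 3, or *AGO1/2/3* knockout replicate 2 or 3. A fit to the 6 samples of those 2 lines lost it too (-0.70, edgeR adjusted p = 0.0780). Column headers for the *AGO2* knockout samples mention a quasi mode of quantification, absent from the other headers, so for that line mode and genotype cannot be told apart.

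**Figure D1:**
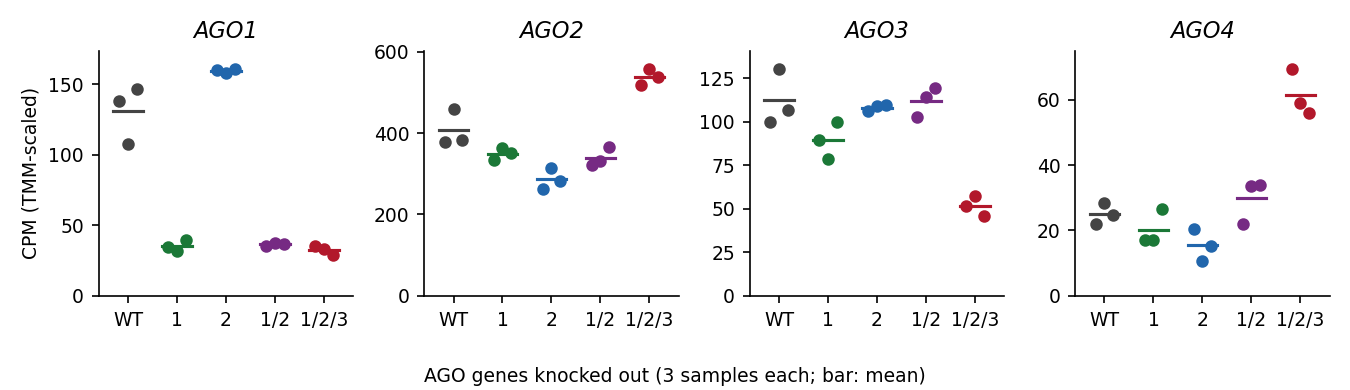
Levels of the 4 *AGO* genes in the 15 samples, by genes knocked out. Points are replicates and bars are means of 3.

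Levels of the 9 lncRNAs in WT cells spanned a wide range once divided by exon length. *MALAT1* stood at 1496 CPM per kb, first of the 4815 genes of the lncRNA class tested and at rank 27 of 22582 genes of any class. *NORAD* followed at 69.9 CPM per kb (rank 7 in its class), *NEAT1* at 54.6 (rank 13) and *UCA1* at 25.4 (rank 24). *TUG1* stood at 11.02 and *OIP5-AS1* at 7.28 CPM per kb. *PVT1*, *KCNQ1OT1* and *H19* were lowest on this scale, at 1.92, 1.37 and 0.974 CPM per kb, and *H19* rested on 118, 71 and 138 counts in the WT replicates. *PVT1* had 1477, 1671 and 1552 counts there. It was divided by 25431 merged exon bases, while its longest transcript has 2450, so its place depends on the length used. All 9 passed the filter on low counts, each with counts in all 15 samples. *MALAT1* alone took between 0.894% and 2.74% of all counts in a sample, with WT replicate 2 at the top.

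**Figure D2:**
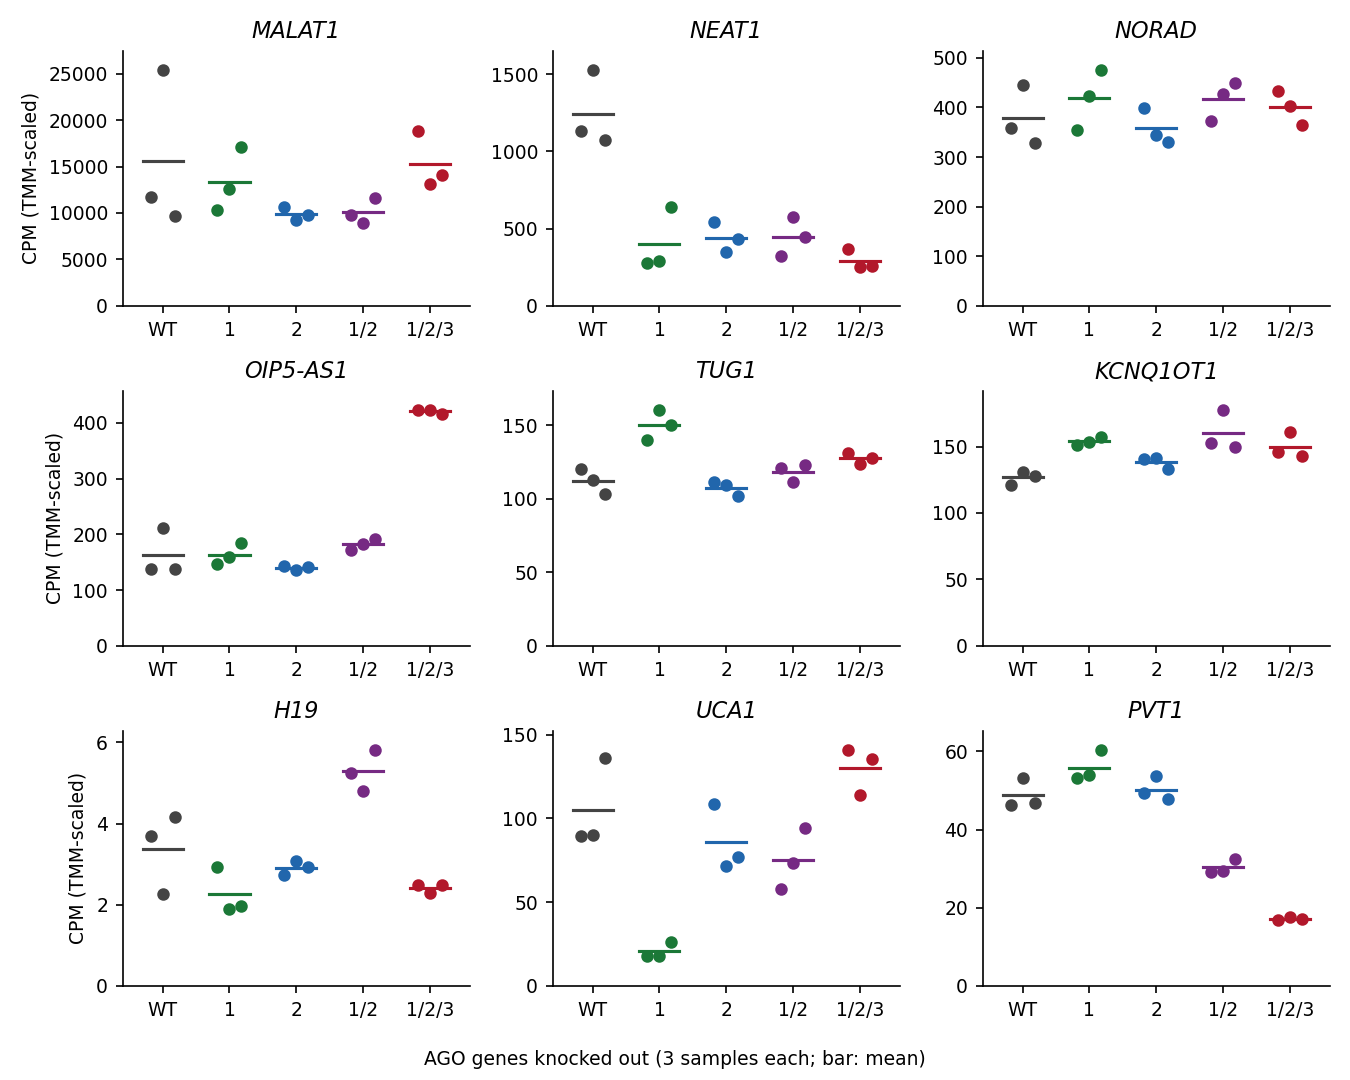
Level of each lncRNA in each of the 15 samples, by *AGO* genes knocked out. Points are replicates and bars are means of 3.

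Counted over the set, at most 4 of the 9 lncRNAs passed the test in any comparison. In *AGO1* knockout cells 1 rose (*TUG1*) and 2 fell (*NEAT1*, *UCA1*), where 3.17% of all genes tested rose and 5.50% fell. In *AGO2* knockout cells 0 rose and 1 fell (*NEAT1*), beside 8.55% and 10.8% of all genes. The count of 0 was from edgeR, and it was also 0 at an unadjusted p under 0.05 and by DESeq2. In *AGO1/2* knockout cells 2 rose (*KCNQ1OT1*, *H19*) and 2 fell (*NEAT1*, *PVT1*), beside 8.37% and 8.35% of all genes. In *AGO1/2/3* knockout cells 2 rose (*OIP5-AS1*, *KCNQ1OT1*) and 2 fell (*NEAT1*, *PVT1*), beside 20.3% and 19.8%. Set directly against *AGO1/2* knockout cells, the *AGO1/2/3* line had 2 higher (*OIP5-AS1*, *UCA1*) and 2 lower (*H19*, *PVT1*), beside 11.9% and 10.0%. With 9 genes a single call is 11.1% of the set, so these counts describe the named genes and not a property of the group. The comparisons with WT share the same 3 WT samples.

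The counts of calls moved with single libraries in a few places. In *AGO1* knockout cells 2 rose on leaving out *AGO1/2* knockout replicate 2, and in *AGO2* knockout cells 2 fell on leaving out WT replicate 3. For *AGO1/2* knockout cells the count that rose was 0 without WT replicate 1 or *AGO1/2* knockout replicate 2, and 1 without any *AGO2* or *AGO1/2/3* knockout library or *AGO1/2* knockout replicate 1 or 3. Against *AGO1/2* knockout cells, 1 was higher in the *AGO1/2/3* line without *AGO1/2* knockout replicate 1 or 2 or *AGO1/2/3* knockout replicate 1 or 3. In *AGO1/2/3* knockout cells the count that rose was 1 on leaving out any library but *AGO1* knockout replicate 1 or *AGO1/2* knockout replicate 2. The genes behind these shifts are named where each is described. As a class, lncRNAs in *AGO1/2/3* knockout cells were called higher in 7.27% and lower in 17.2% of the 4815 tested, against 26.6% and 21.5% of the 14830 protein-coding genes tested. The median log2 fold change was -0.13 over lncRNAs and 0.04 over protein-coding genes. With signs ignored, changes were of similar size, at medians of 0.40 for lncRNAs and 0.41 for protein-coding genes. Standard errors were larger for lncRNAs, at a median of 0.29 against 0.15. A change of given size was thus less readily called in a lncRNA, and the shares called do not tell which class changed more.

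**Figure D3:**
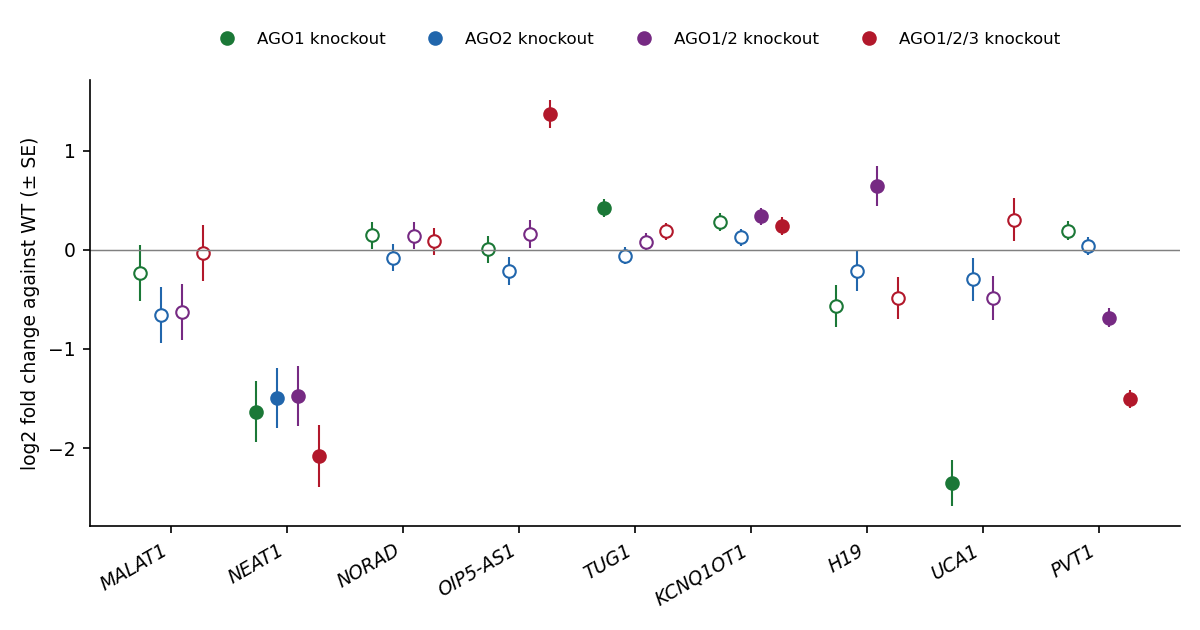
Log2 fold change of each lncRNA in each knockout line against WT, with standard errors derived from edgeR's test statistic. Filled circles passed edgeR's test at an adjusted p of 0.05 and open circles did not.

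*NORAD* is a cytoplasmic lncRNA known for binding proteins of the PUMILIO family, which recognise the letters UGUANAUA. Its single exon of 5401 bases holds 15 matches to UGUANAUA on the sense strand, 2.78 per kb. Among 602 lncRNAs of like length (within 20%), 3 held as many (0.498%) and 39.9% held at least 1. The first 3 matches are shown because these repeats set *NORAD* apart from the other members, of which *KCNQ1OT1* with 9 matches in 91667 bases came next by number. Each is given in GRCh38 on the minus strand of chromosome 20, 5′ to 3′, with the matched letters in capitals, at chr20:36050185-36050208, chr20:36049806-36049829 and chr20:36049705-36049728.
NORAD match 1: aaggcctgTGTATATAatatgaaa
NORAD match 2: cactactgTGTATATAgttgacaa
NORAD match 3: tcacatttTGTAAATAcctttttg
A match is a description of letters and not a binding site or a cause of any level.

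*NORAD* measured 359, 446 and 328 CPM in WT cells, 355, 424 and 476 in *AGO1* and 399.6, 345 and 329 in *AGO2* knockout cells. The *AGO1/2* line had 372, 428 and 449 CPM and the *AGO1/2/3* line 434, 403 and 365. All 5 lines overlapped, and no neighbours in the order of means (*AGO1*, *AGO1/2*, *AGO1/2/3*, WT, *AGO2*) differed beyond their spread. Log2 fold changes against WT were 0.15, -0.08, 0.14 and 0.09 (SE 0.14 each), with edgeR adjusted p from 0.549 to 0.718, and the last became -0.06 when counts were scaled by totals alone. Of 12 mRNAs known to be PUMILIO targets on the *NORAD* axis, 4 rose and 0 fell in *AGO1/2/3* knockout cells, at a median of 0.59 log2 units (0.35 to 0.69 over the alternatives) against -0.01 over all genes, of which 20.3% rose. With counts scaled by totals alone 2 rose, and over all alternatives 2 to 7. After *AGO2* knockout the median was 0.57 (0.30 to 0.69), with 2 higher (0 to 6 over the alternatives) and 0 lower, where 8.55% of all genes rose. The *AGO1* line had a median of 0.01 (-0.24 to 0.32) and the *AGO1/2* line 0.33 (-0.01 to 0.48), with 1 higher in each. Of all genes 3.17% and 8.37% rose in those lines, and the count in the *AGO1* line was 0 to 1 over the alternatives. The 4 in the *AGO1/2/3* line were the cell cycle inhibitor *CDKN1B* (1.15, SE 0.12), cyclin gene *CCNE2* (0.92, SE 0.28), replication licensing gene *CDC6* (0.60, SE 0.18) and *E2F3* (0.39, SE 0.11), with edgeR adjusted p from 1.48e-06 to 0.0165. The count was 2 on leaving out WT replicate 2 (without *CDC6* and *E2F3*) or *AGO1/2/3* knockout replicate 2 (without *CDC6* and *CCNE2*), and *CDC6* was lost without *AGO1/2/3* knockout replicate 3. *CCNE2*, like several other targets listed, varied widely between WT libraries (mean 15.3 CPM, SD 7.49). It was not called in a fit to 6 samples (0.87, edgeR adjusted p = 0.0813). The PUMILIO gene *PUM2* was called higher in *AGO1/2/3* knockout cells (0.22, SE 0.078, edgeR adjusted p = 0.0349), and that call was lost on leaving out any library but *AGO1* knockout replicate 1 and under several other alternatives, with 0.08 when counts were scaled by totals alone. The 3 genes most like *NORAD* over the 15 samples, of 16083 compared, included *LINC02035* (Pearson r = 0.921), and the other 2 have no symbol (r = 0.907 and 0.899).

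*OIP5-AS1*, the RNA also called cyrano, is known as a deep-pairing partner of miR-7 that triggers the miRNA's decay. The mature miR-7-5p from RefSeq (GRCh38.p14) is shown with its seed, bases 2 to 8, in capitals, beside the stretches of *OIP5-AS1* that hold the seed match GTCTTCC, also in capitals, because pairing with miR-7 is what this lncRNA is known for. The 3 stretches lie in exon 4 of 4 on the plus strand of chromosome 15 in GRCh38, at chr15:41298411-41298436, chr15:41300574-41300599 and chr15:41305854-41305879, in a transcript of 8881 bases.
miR-7-5p: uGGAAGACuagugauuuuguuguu
OIP5-AS1 match 1: tcagggtttaaaaaaaatGTCTTCCa
OIP5-AS1 match 2: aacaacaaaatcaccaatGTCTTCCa
OIP5-AS1 match 3: atatcctgaatatagtttGTCTTCCc
Beyond the seed, an unbroken run of 14 bases at the 3′ end of the miRNA can pair at match 2. At each of the other matches the longest such run was 2, wherever it lay in the bases shown before the seed match. That value was not aligned to the seed and is not a count of pairs at those sites. Of 104 lncRNAs of like length, 5.77% held 3 or more seed matches on the sense strand and 47.1% held at least 1. Elsewhere in the set, *KCNQ1OT1* held 6 matches in 91667 bases and the other 7 lncRNAs held 0. The genes for the miR-7 precursors (*MIR7-1*, *MIR7-2*, *MIR7-3*) are listed in the files at 0 in all 15 samples, so the miRNA itself was not measured by these libraries.

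*OIP5-AS1* measured 139, 212 and 138 CPM in WT cells and 423, 424 and 416 in *AGO1/2/3* knockout cells. The *AGO1* line had 146, 159.7 and 184 CPM, the *AGO2* line 143, 136 and 142 and the *AGO1/2* line 172, 183 and 191. The 3 *AGO1/2/3* knockout libraries sat close together and far above the other 12. The rest ran in the order *AGO1/2*, *AGO1*, WT, *AGO2*, each overlapping the next. The steady state level rose 2.58-fold against WT (log2 fold change 1.37, SE 0.14, edgeR adjusted p = 2.2e-06) and 2.31-fold against *AGO1/2* knockout cells (1.21, SE 0.14, edgeR adjusted p = 2.18e-05), in 3 of 3 samples. The other lines had values of 0.00, -0.22 and 0.16 against WT and did not pass the test, the first of them turning to -0.09 when counts were scaled by totals alone. WT replicate 2 was the highest WT library, and without it the value for *AGO1/2* knockout cells was 0.38 with an edgeR adjusted p of 0.0163. Without WT replicate 1, WT replicate 3 or *AGO1* knockout replicate 3 the value for *AGO1* knockout cells was -0.09, -0.10 and -0.07.

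The other genes around and along the miR-7 axis were read beside it. The protein-coding neighbour *NUSAP1* shares 1599 bases with *OIP5-AS1* on the same strand, and *OIP5* lies on the opposite strand over 13120 bases. *NUSAP1* had a log2 fold change of 0.68 in *AGO1/2/3* knockout cells (edgeR adjusted p = 0.058) and *OIP5* one of 0.24 (edgeR adjusted p = 0.553). The library kit keeps strand, but whether the quantification used it is not stated, so reads from shared bases cannot be assigned with certainty. Over the 125 genes within 5 Mb that averaged 1 CPM or more the median log2 fold change was 0.04, with 38 called higher and 25 lower. Over the 70 within 2 Mb it was 0.33, with 29 higher and 7 lower, beside 20.3% and 19.8% of all genes. Of 12 genes listed for the miR-7 axis, *OIP5* itself beside reported miR-7 targets and partners, 5 rose and 0 fell in *AGO1/2/3* knockout cells, at a median of 0.32, beside 20.3% and 19.8% of all genes. With counts scaled by totals alone 4 rose and 1 fell, at 0.18. Among them were the actin-binding *CNN3* (1.48, SE 0.15), the insulin receptor substrate *IRS2* (1.31, SE 0.15), the receptor *EGFR* (0.90, SE 0.15) and the kinase gene *PAK1* (0.34, SE 0.086), with edgeR adjusted p at most 0.00512. The *PAK1* call was lost with counts scaled by totals alone (0.20, edgeR adjusted p = 0.0905), without the filter (0.32, edgeR adjusted p = 0.0571) and in a fit to 6 samples (0.29, edgeR adjusted p = 0.0582). Without *AGO1* knockout replicate 1 or 3, 1 of the 12 was called lower. In *AGO1* knockout cells 0 of the 12 rose and 1 (*IRS2*, -0.97) fell by edgeR. After *AGO2* knockout 1 rose and 3 fell (0 to 2 and 2 to 4 on leaving out single libraries). Those that fell were *KLF4* (-1.89, SE 0.34), *ZSWIM8* (-0.81, SE 0.14) and *IRS2* (-0.45, SE 0.15), with edgeR adjusted p at most 0.0453. In the *AGO1/2* line 0 rose and 1, *KLF4* (-1.06, edgeR adjusted p = 0.0407), fell (0 to 2 and 0 to 1). *KLF4* was not called in *AGO1/2/3* knockout cells (-0.74, edgeR adjusted p = 0.0867). Of all genes, 3.17% rose and 5.50% fell in *AGO1* knockout cells. The same shares were 8.55% and 10.8% after *AGO2* knockout and 8.37% and 8.35% in the *AGO1/2* line. The genes closest to *OIP5-AS1* in pattern over the 15 samples were *AKAP13* (Pearson r = 0.983), *ALCAM* (0.982) and *CDC42EP3* (0.982). Each of those had its highest mean in *AGO1/2/3* knockout cells, at 282, 414 and 159 CPM against 127, 133 and 71.6 in WT cells.

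*MALAT1* is a nuclear lncRNA that gathers at nuclear speckles, where splicing factors are stored. It measured 11758, 25421 and 9660.2 CPM in WT cells, 10289, 12588 and 17076 in *AGO1* and 10667, 9226 and 9765 in *AGO2* knockout cells. Loss of *AGO1* and *AGO2* gave 9818, 8931 and 11568 CPM, and the *AGO1/2/3* line had 18799.6, 13074 and 14077. WT replicate 2 was far above the other WT libraries, and every line overlapped the next in the order WT, *AGO1/2/3*, *AGO1*, *AGO1/2*, *AGO2*. Log2 fold changes against WT were -0.23, -0.66, -0.63 and -0.03 (SE 0.28 each), with edgeR adjusted p of 0.692, 0.111, 0.156 and 0.952. *AGO1/2/3* knockout libraries all lay above *AGO1/2* knockout libraries, at 0.60 (SE 0.28, edgeR adjusted p = 0.153). Calls for *MALAT1* varied between alternatives. Without WT replicate 3 it was called lower in *AGO2* (-0.93, edgeR adjusted p = 0.0239) and *AGO1/2* knockout cells (-0.89, edgeR adjusted p = 0.0312). Without the filter on low counts it was called lower in the same lines (-0.62 and -0.64, edgeR adjusted p of 0.0357 and 0.0367). Without WT replicate 2 those lines had -0.14 and -0.10, the values for *AGO1* and *AGO1/2/3* knockout cells turned to 0.31 and 0.49, and none of the 4 was called. Then the *AGO1/2/3* against *AGO1/2* difference was called at 0.59 (edgeR adjusted p = 0.022), as it was in a fit to the 6 samples of those lines (0.58, edgeR adjusted p = 0.0200). Without *AGO1/2/3* knockout replicate 2 the value in that line was 0.06.

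Of 12 genes for nuclear speckle proteins and *MALAT1* partners, 2 rose and 1 fell in *AGO1/2/3* knockout cells, at a median of 0.08 (-0.06 with counts scaled by totals alone). Neither count exceeded the shares of all genes, 20.3% and 19.8%. The speckle protein gene *SON* rose by 0.55 (SE 0.11, edgeR adjusted p = 0.0008). The splicing factor gene *SRSF2* had 0.61 (SE 0.20) and *HNRNPC* -0.35 (SE 0.10), with edgeR adjusted p of 0.0233 and 0.0145. *SRSF2* was not called without WT replicate 2 or *AGO1/2/3* knockout replicate 1 or 3, nor with counts scaled by totals alone (0.47, edgeR adjusted p = 0.0785), where the list gave 1 higher and 2 lower. *HNRNPC* was not called without WT replicate 3 or *AGO1/2/3* knockout replicate 1 or 2. In *AGO2* knockout cells 6 of the 12 were called higher, beside 8.55% of all genes, a count that dropped to 0 with counts scaled by totals alone and also on leaving out WT replicate 2, *AGO2* knockout replicate 2 or *AGO2* knockout replicate 3, to 2 without WT replicate 1, and to 3 without WT replicate 3, *AGO2* knockout replicate 1, *AGO1/2* knockout replicate 2 or *AGO1/2/3* knockout replicate 2. The genes with the pattern most like *MALAT1* were *ZNF641* (Pearson r = 0.909 over 15 samples), *ZNF621* (0.903) and *ERCC6* (0.887).

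*NEAT1* is the lncRNA on which paraspeckles, nuclear bodies built with DBHS proteins, assemble, and its gene lies beside *MALAT1* on 11q13. It measured 1131, 1529 and 1072 CPM in WT cells, 275, 289 and 641 in *AGO1* and 543, 352 and 431 in *AGO2* knockout cells. Levels were 322, 575 and 444 CPM in the *AGO1/2* line and 371, 252 and 258 in the *AGO1/2/3* line. Every one of the 12 knockout libraries lay below every WT library, while the 4 knockout lines overlapped one another. *AGO1* knockout replicate 3 stood apart from the other 2 of its line.

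*NEAT1* was the 1 member called in all 4 knockout lines. It was left at 32.3%, 35.5%, 35.9% and 23.6% of its WT level by the fitted values, in the *AGO1*, then the *AGO2*, then the *AGO1/2* and then the *AGO1/2/3* line. The log2 fold changes were -1.63 (SE 0.31), -1.49 (SE 0.31), -1.48 (SE 0.31) and -2.08 (SE 0.31), with edgeR adjusted p of 0.00392, 0.00586, 0.00362 and 7.29e-05. *AGO1/2/3* against *AGO1/2* knockout cells gave -0.61 (SE 0.30, edgeR adjusted p = 0.172), which crossed the threshold without *AGO1* knockout replicate 3 (-0.63, edgeR adjusted p = 0.0497) and in a fit to the 6 samples of those lines (-0.63, edgeR adjusted p = 0.0400). The 231 genes within 5 Mb at 1 CPM or more had median log2 fold changes of -0.10, -0.02, 0.03 and -0.11 in the 4 lines, so *NEAT1* lay between 1.47 and 1.97 log2 units under its surroundings.

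Of 14 paraspeckle protein genes, 2 rose and 2 fell in *AGO1/2/3* knockout cells, below the 20.3% and 19.8% of all genes, at a median of 0.17 (0.03 with counts scaled by totals alone). *RBM14* (0.63, SE 0.18) and *TARDBP* (0.55, SE 0.15) were the higher pair, and *HNRNPA1* (-0.45, SE 0.17) and *DAZAP1* (-0.43, SE 0.14) the lower, with edgeR adjusted p from 0.00961 to 0.0436. *HNRNPA1* was not called in a fit to 6 samples (-0.51, edgeR adjusted p = 0.0854). The higher count was 0 without WT replicate 2 or *AGO1/2/3* knockout replicate 3, and the lower count was 0 without WT replicate 1 or *AGO1/2/3* knockout replicate 1 or 2, and 1 without WT replicate 3, *AGO1* knockout replicate 1 or *AGO1/2/3* knockout replicate 3. In *AGO2* knockout cells 6 of the 14 were called higher at a median of 0.42, beside 8.55% of all genes. The count was 2 with counts scaled by totals alone, and 0, 0 and 1 without WT replicate 2, *AGO2* knockout replicate 2 and *AGO2* knockout replicate 3. Of 11 tested neighbours on 11q13, 3 rose and 2 fell in *AGO1/2/3* knockout cells, beside the same 20.3% and 19.8%. *LTBP3*, which encodes a latent TGF-beta binding protein, fell by 0.94 on the log2 scale and *SLC25A45* fell by 0.76, while the acetyltransferase gene *KAT5* rose by 0.48 (edgeR adjusted p of 2.97e-05, 0.000361 and 0.000507). The higher count was 1 without WT replicate 1 or 2 or *AGO1/2/3* knockout replicate 1 or 3, and the lower count was 4 without WT replicate 2. *SIPA1*, also among the 3 higher (0.40, SE 0.15, edgeR adjusted p = 0.0470), lost its call under 20 alternatives and kept it under 2. Of the single libraries left out, WT replicate 3 alone left that call in place. With counts scaled by totals alone 1 was higher and 4 lower. Elsewhere 0 rose and 3 fell in *AGO1* knockout cells (1 to 4 on leaving out single libraries), including *LTBP3* (-1.12) and *KAT5* (-0.35). Likewise 0 rose and 3 fell in *AGO2* knockout cells (1 to 3), including *LTBP3* (-0.81), and 1 rose and 1 fell in the *AGO1/2* line (0 to 3 and 0 to 1). The shares of all genes that fell in the *AGO1* and *AGO2* lines were 5.50% and 10.8%. In the *AGO1/2* line 8.37% of all genes rose and 8.35% fell. The genes most like *NEAT1* over the 15 samples were the phospholipase gene *PLA2G6* (Pearson r = 0.975), *GGA1* (0.971) and the enolase gene *ENO3* (0.953), each highest in WT cells, at 13.9, 53.3 and 7.62 CPM on average against 6.45, 34.4 and 3.21 in *AGO1/2/3* knockout cells.

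*TUG1*, a lncRNA known for binding Polycomb proteins, measured 119.9, 112 and 103 CPM in WT cells, 140.0, 160.4 and 149.7 in *AGO1* and 111, 109 and 102 in *AGO2* knockout cells. The *AGO1/2* line had 121, 111 and 122.5 CPM, the *AGO1/2/3* line 131, 123.4 and 128. *AGO1* knockout libraries were highest and overlapped no other line, *AGO1/2/3* knockout libraries came next, and each of the others overlapped the next in the order *AGO1/2*, WT, *AGO2*. *TUG1* rose 1.34-fold in *AGO1* knockout cells (log2 fold change 0.42, SE 0.088, edgeR adjusted p = 0.00754, 3 of 3 samples above WT). A fit to the 6 samples of those 2 lines alone gave 0.43 with an edgeR adjusted p of 0.118. For *AGO2* knockout, *AGO1/2* knockout and *AGO1/2/3* knockout cells the values were -0.06, 0.08 (-0.01 with counts scaled by totals alone) and 0.19, with edgeR adjusted p from 0.107 to 0.668. Of 7 tested Polycomb repressive complex genes and neighbours, 3 rose and 1 fell in *AGO1/2/3* knockout cells, a count that held on leaving out each library, beside 20.3% and 19.8% of all genes. *SMTN* rose by 0.80 (SE 0.14), the methyltransferase gene *EZH2* by 0.65 (SE 0.18) and its partner *SUZ12* by 0.48 (SE 0.13), while *INPP5J* fell by 0.57 (edgeR adjusted p at most 0.0114). In *AGO1* knockout cells, where *TUG1* was called, *SMTN* was the 1 gene of the 7 called, and it was lower (-0.84, SE 0.14, edgeR adjusted p = 0.00147). Leaving out single libraries gave 1 to 2 lower there, in a line where 3.17% of all genes rose and 5.50% fell. *GRIK2* and *PTCHD4* were among the genes most like *TUG1*, with Pearson r of 0.906 and 0.903, and *GRIK2* averaged 1.10 CPM in WT and 14.2 CPM in *AGO1* knockout cells.

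*KCNQ1OT1* and *H19* are the lncRNAs of the imprinted domains on 11p15.5. *KCNQ1OT1* is made from the paternal chromosome within *KCNQ1*, and *H19*, expressed from the maternal one, hosts miR-675. The miR-675 arms from RefSeq (GRCh38.p14) are shown, with seed bases 2 to 8 in capitals, because *H19* is known as their host.
miR-675-5p: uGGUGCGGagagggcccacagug
miR-675-3p: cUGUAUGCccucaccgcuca
Their precursor gene *MIR675* is listed at 0 in all 15 samples. *H19* has been described as a let-7 sponge, and the let-7a-5p of RefSeq is shown for its seed.
let-7a-5p: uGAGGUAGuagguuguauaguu
The seed match CTACCTC was absent from the 2396 bases of *H19* searched on the sense strand, where 12.1% of 2483 lncRNAs of like length held at least 1, and it was found 3 times in *NEAT1*, 8 times in *KCNQ1OT1* and 1 time in *OIP5-AS1*. Other versions of these transcripts were not searched, and absence of these letters says nothing on pairing by other bases.

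*KCNQ1OT1* measured 121, 131 and 128 CPM in WT cells, 151, 153 and 158 in *AGO1* and 140.3, 141 and 133 in *AGO2* knockout cells. Values were 153, 178 and 149.9 CPM in the *AGO1/2* line and 146, 161 and 143 in the *AGO1/2/3* line. All 12 knockout libraries lay above the WT libraries by a small margin, *AGO2* knockout cells came next above WT, and the other 3 lines overlapped. The log2 fold changes were 0.28, 0.13, 0.34 and 0.24 (SE 0.088 to 0.089), with edgeR adjusted p of 0.0639, 0.327, 0.0157 and 0.0397, so it was called higher in the *AGO1/2* line and in the *AGO1/2/3* line. The first call was lost without WT replicate 1 (0.30, edgeR adjusted p = 0.0697) or *AGO1/2* knockout replicate 2 (0.24, edgeR adjusted p = 0.108), and also under totals alone (0.25), without the filter (0.33) and in a fit to 6 samples (0.32), at edgeR adjusted p from 0.0797 to 0.136. The second was lost on leaving out any library but *AGO1* knockout replicate 1 or *AGO1/2* knockout replicate 2, at values from 0.18 to 0.24. It was lost too with counts scaled by totals alone (0.10, edgeR adjusted p = 0.428), without the filter (0.22), with at least 10 counts in every sample (0.18) and in a fit to 6 samples (0.19). *AGO1* knockout cells were called as well without *AGO1/2* knockout replicate 2 (0.29, edgeR adjusted p = 0.0479), with at least 10 counts (0.29, edgeR adjusted p = 0.0462) and by DESeq2 (0.29). *KCNQ1*, which lies on the opposite strand over the whole of *KCNQ1OT1*, averaged 5.57 CPM in WT and 9.46 CPM in *AGO1/2/3* knockout cells (0.77, SE 0.29, edgeR adjusted p = 0.0459). That call was lost on leaving out any of 10 single libraries, among them each WT and each *AGO1/2/3* knockout replicate, and also under totals alone (0.62, edgeR adjusted p = 0.0957) and with at least 10 counts in every sample (0.70, edgeR adjusted p = 0.0662), and reads from either strand cannot be told apart if strand was not used. The genes most like *KCNQ1OT1* were 2 small RNA genes, *SNORA61* (Pearson r = 0.876) and *RNU4-2* (0.860), with *ANKRD18B* (0.863).

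*H19* measured 3.70, 2.26 and 4.16 CPM in WT cells, 2.93, 1.90 and 1.97 in *AGO1* and 2.73, 3.08 and 2.94 in *AGO2* knockout cells. Without *AGO1* and *AGO2* it stood at 5.25, 4.79 and 5.82 CPM, and the *AGO1/2/3* line had 2.48, 2.28 and 2.47. *AGO1/2* knockout libraries were the highest and overlapped no other line, and WT replicates 1 and 3 lay above every library of the remaining lines, with WT replicate 2 among them. *H19* rose 1.56-fold in *AGO1/2* knockout cells against WT (log2 fold change 0.65, SE 0.20, edgeR adjusted p = 0.0387) and was 2.19-fold lower in *AGO1/2/3* than in *AGO1/2* knockout cells (-1.13, SE 0.21, edgeR adjusted p = 0.00104). The first call was lost on leaving out any of 11 single libraries, those other than WT replicate 3 and the 3 of *AGO1* knockout cells, with values from 0.41 to 0.71, and also under totals alone (0.56) and in a fit to 6 samples (0.63), while the difference between *AGO1/2/3* and *AGO1/2* knockout cells held under every alternative run. Against WT the *AGO1*, *AGO2* and *AGO1/2/3* lines had -0.57, -0.21 and -0.49, with edgeR adjusted p of 0.115, 0.481 and 0.0782. Without WT replicate 2, the lowest WT library, *H19* was called lower in *AGO1* (-0.78, edgeR adjusted p = 0.0153) and *AGO1/2/3* knockout cells (-0.73, edgeR adjusted p = 0.00443). With every library kept it was called lower in the *AGO1/2/3* line as well, with counts scaled by totals alone (-0.62, edgeR adjusted p = 0.0246) and with at least 10 counts in every sample (-0.55, edgeR adjusted p = 0.0411).

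Of 15 other genes of the 11p15.5 imprinted domains, 10 were tested, and 5 rose and 1 fell in *AGO1/2/3* knockout cells, at a median of 0.29, beside 20.3% and 19.8% of all genes. With counts scaled by totals alone 3 rose, at 0.15. The growth factor gene *IGF2* had 0.83 (SE 0.17), the cell cycle inhibitor *CDKN1C* 0.96 (SE 0.29), the histone chaperone gene *NAP1L4* 0.50 (SE 0.13) and *SLC22A18* -0.68 (SE 0.23), with edgeR adjusted p from 0.00127 to 0.0295. The higher count was 3 without WT replicate 1 or *AGO1/2/3* knockout replicate 1 or 3 and 2 without WT replicate 2, and the lower count was 0 without *AGO1/2/3* knockout replicate 1 or 2. *CDKN1C* was not called without WT replicate 1 or 2, nor *SLC22A18* without *AGO1/2/3* knockout replicate 1 or 2 or WT replicate 2. Of the 10, 0 rose and 3 fell in the *AGO1* line (1 to 3 lower on leaving out single libraries), 1 rose and 2 fell in the *AGO2* line (0 to 2 and 1 to 4), and 2 rose and 0 fell in the *AGO1/2* line (0 to 3 higher). The shares of all genes that rose and fell were 3.17% and 5.50% in the *AGO1* line. They were 8.55% and 10.8% in the *AGO2* line and 8.37% and 8.35% in the *AGO1/2* line. *IGF2* was called higher in *AGO1/2* knockout cells too (0.63, SE 0.17, edgeR adjusted p = 0.0212). Among the genes most like *H19*, *CAPN1* had a Pearson r of 0.907, *IGFBP6*, for an insulin-like growth factor binding protein, 0.893, and *EGFL7* 0.879. *IGFBP6* averaged 10.2 CPM in WT and 41.1 CPM in *AGO1/2* knockout cells.

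*UCA1*, first described in urothelial cancer, measured 89.5, 90.0 and 136 CPM in WT cells and 17.6, 18.1 and 26.1 in *AGO1* knockout cells. The *AGO2* line had 109, 71.4 and 77.1 CPM, the *AGO1/2* line 57.7, 73.7 and 94.4 and the *AGO1/2/3* line 141, 114 and 136. *AGO1* knockout libraries were far below all others, and each remaining line overlapped the next in the order *AGO1/2/3*, WT, *AGO2*, *AGO1/2*. *UCA1* fell 5.11-fold in *AGO1* knockout cells (log2 fold change -2.35, SE 0.23, edgeR adjusted p = 1.85e-05, 3 of 3 samples below WT). The *AGO2* line, the *AGO1/2* line and the *AGO1/2/3* line had values of -0.30, -0.48 and 0.31 (SE 0.22 each), with edgeR adjusted p of 0.345, 0.154 and 0.289. *AGO1/2/3* knockout cells were 1.73-fold higher than *AGO1/2* knockout cells (0.79, SE 0.22, edgeR adjusted p = 0.0172), a call lost without *AGO1/2* knockout replicate 1 (0.63), *AGO1/2* knockout replicate 2 (0.77), *AGO1/2/3* knockout replicate 1 (0.73) or *AGO1/2/3* knockout replicate 3 (0.73), at edgeR adjusted p from 0.0593 to 0.0778.

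The 231 genes at 1 CPM or more within 5 Mb of *UCA1* had in *AGO1* knockout cells a median of -0.07, and *UCA1* lay 2.28 log2 units under it. The cytochrome gene *CYP4F11*, in the P450 cluster beside *UCA1*, fell with it in *AGO1* knockout cells (-2.78, SE 0.24, edgeR adjusted p = 3.64e-06) and was the 1 gene of 8 tested neighbours called in that line. There 3.17% of all genes rose and 5.50% fell, and 2 of the 8 fell with counts scaled by totals alone. In *AGO1/2/3* knockout cells 4 of the 8 rose and 1 fell, at a median of 0.61 (0.40 to 0.65 over the alternatives), beside 20.3% and 19.8% of all genes: *CYP4F12* rose by 2.78 (SE 0.29), *CYP4F3* by 0.94 (SE 0.19) and the tropomyosin gene *TPM4* by 0.83 (SE 0.10), while *CYP4F11* fell by 1.81 (edgeR adjusted p at most 0.000997). Without WT replicate 2, or with counts scaled by totals alone, 2 fell. In *AGO1/2* knockout cells 4 of the 8 rose (3 to 6 over the alternatives, 3 with totals alone) and 0 fell, beside 8.37% and 8.35% of all genes. *LINC01764*, on the opposite strand over 7648 bases of *UCA1*, averaged 0.516 CPM in WT and 0.293 CPM in *AGO1* knockout cells. The most alike genes were the polarity gene *PARD3* (Pearson r = 0.947), *AKR1E2* (0.939) and *LEMD2* (0.929), with *PARD3* at 76.7 CPM in WT and 48.7 CPM in *AGO1* knockout cells.

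*PVT1* is the lncRNA gene next to *MYC* on 8q24, known as a competitor of the *MYC* promoter for enhancers and as host of a miRNA cluster. It measured 46.3, 53.3 and 46.8 CPM in WT cells, 53.1, 54.0 and 60.4 in *AGO1* and 49.3, 53.6 and 47.7 in *AGO2* knockout cells. Its level was 29.2, 29.4 and 32.5 CPM in the *AGO1/2* line and 16.8, 17.6 and 17.2 in the *AGO1/2/3* line. WT, *AGO1* and *AGO2* knockout libraries overlapped, *AGO1/2* knockout libraries lay under them, and *AGO1/2/3* knockout libraries lay lowest, with no overlap at either step. *PVT1* fell 1.61-fold in *AGO1/2* knockout cells (log2 fold change -0.68, SE 0.092, edgeR adjusted p = 0.000131) and 2.84-fold in *AGO1/2/3* knockout cells (-1.51, SE 0.094, edgeR adjusted p = 1.31e-08). The step between those lines was itself called (-0.82, SE 0.094, edgeR adjusted p = 1.77e-05), with 3 of 3 samples lower each time. The single knockouts had 0.19 (SE 0.091, edgeR adjusted p = 0.221) and 0.04 (SE 0.091, edgeR adjusted p = 0.77). The second of these became -0.08 with counts scaled by totals alone and turned to -0.01, -0.01 and -0.02 without WT replicate 1, WT replicate 3 or *AGO2* knockout replicate 2.

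*PVT1* did not move alone on 8q24. Over the 42 genes within 5 Mb whose mean reached 1 CPM, the median was 0.01 for the *AGO1* and 0.12 for the *AGO2* line, -0.55 (SD 0.091 over replicates) in *AGO1/2* knockout cells, where 0 were called higher and 25 lower, and -0.52 (SD 0.091) in *AGO1/2/3* knockout cells, where 3 were higher and 24 lower. Beside these counts, 8.37% of all genes rose and 8.35% fell in the *AGO1/2* line. For the *AGO1/2/3* line the shares were 20.3% and 19.8%. Over the 10 genes within 2 Mb the medians in those 2 lines were -0.78 and -1.04. In *AGO1/2* knockout cells *PVT1* was 0.13 log2 units under the 5 Mb median, and in *AGO1/2/3* knockout cells 0.98 under it. Set against the 2 Mb medians it lay 0.10 over and 0.46 under. Between *AGO1/2/3* and *AGO1/2* knockout cells the surrounding median was -0.01 within 5 Mb and -0.26 within 2 Mb. For the other 8 lncRNAs the 5 Mb medians in the 4 lines lay between -0.20 and 0.07. Their 2 Mb medians ran from -0.22, around *H19* in *AGO1* knockout cells, to 0.33, around *OIP5-AS1* in *AGO1/2/3* knockout cells. Of the 70 genes near *OIP5-AS1* 29 were higher there and 7 lower. A count of gene copies was not among the files, and the part of gene dosage in these levels was not tested.

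**Figure D4:**
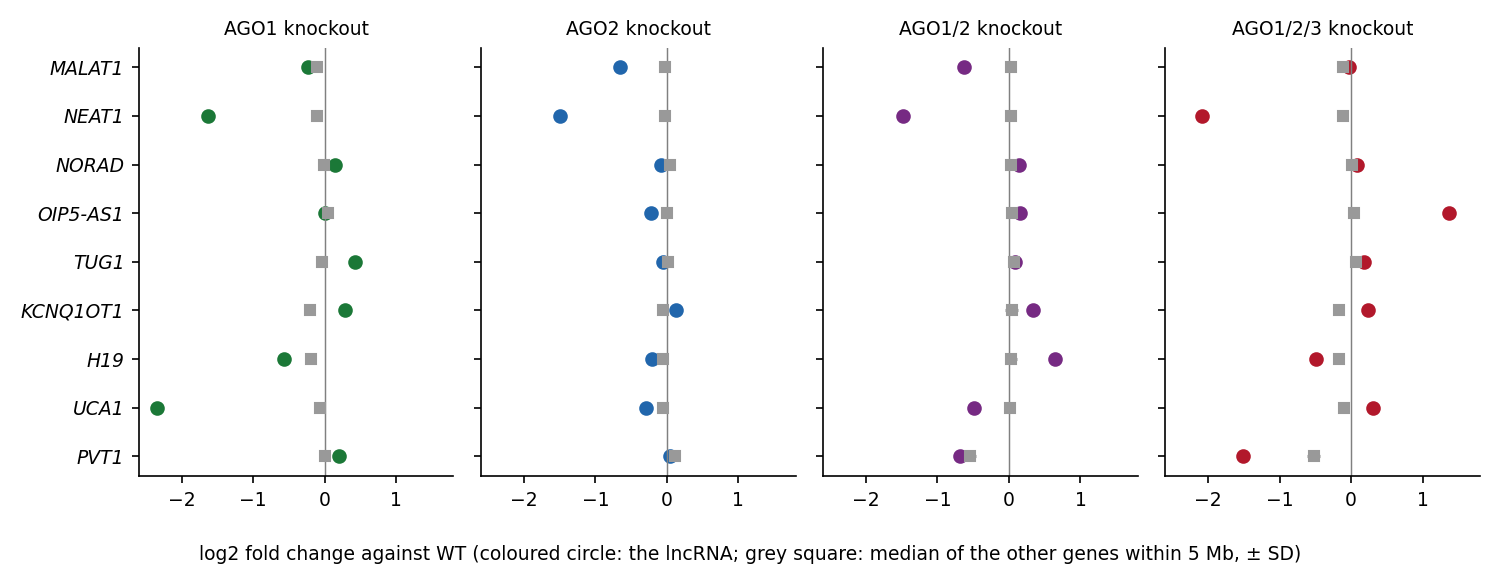
Log2 fold change of each lncRNA against WT beside the median of the other genes within 5 Mb, for the 4 knockout lines. Bars on the squares are standard deviations over replicates.

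Named neighbours of *PVT1* were followed one by one. Of 13 tested on 8q24, 9 fell and 1 rose in *AGO1/2/3* knockout cells, beside 19.8% and 20.3% of all genes, at a median of -1.10, with 8 to 10 lower on leaving out single libraries. The 1 that rose was *ASAP1* (1.31, SE 0.10, edgeR adjusted p = 9.71e-08), which was lower in *AGO1/2* knockout cells (-0.61, edgeR adjusted p = 0.000609). In *AGO1/2* knockout cells 7 fell and 0 rose, at -0.85 (7 to 9 on leaving out single libraries), and in *AGO1* knockout cells 0 passed in either direction (0 to 1 lower). After *AGO2* knockout 1 rose and 2 fell (0 to 1 and 0 to 5), *LRATD2* among the latter (-1.24, SE 0.33, edgeR adjusted p = 0.0206). Over all genes 8.35% fell and 8.37% rose in *AGO1/2* knockout cells. In *AGO1* knockout cells 5.50% of all genes fell and 3.17% rose, and after *AGO2* knockout 10.8% fell and 8.55% rose. *MYC*, the proliferation transcription factor, fell by 2.26 in *AGO1/2/3* (SE 0.14, edgeR adjusted p = 1.64e-08) and by 0.85 in *AGO1/2* knockout cells (SE 0.14, edgeR adjusted p = 0.000608). Log2 fold changes in *AGO1/2/3* knockout cells were -3.53 for *LRATD2*, -3.13, -2.01 and -1.32 for the lncRNAs *CASC19*, *PCAT1* and *CASC8*, and -1.98 for the pseudokinase gene *TRIB1* (edgeR adjusted p at most 0.00213). The miRNA genes within *PVT1* were nearly at 0, with at most 22, 49 and 27 counts in a sample for *MIR1205*, *MIR1206* and *MIR1207*, and they share their bases with *PVT1* reads. Genes with a pattern like that of *PVT1* over the 15 samples included the surface protein gene *PROM1* (Pearson r = 0.988) and the lncRNA *FIRRE* (0.986). *PROM1* averaged 29.4 CPM in WT, 12.7 in *AGO1/2* and 3.90 CPM in *AGO1/2/3* knockout cells.

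Other known regulatory lncRNAs gave a mixed picture. Of 28 tested, 7 rose and 5 fell in *AGO1/2/3* knockout cells, at a median of -0.08, beside 20.3% and 19.8% of all genes. With counts scaled by totals alone 8 fell, at -0.22, and 8 fell without WT replicate 2 and 3 without *AGO1/2/3* knockout replicate 1. *FIRRE*, which anchors chromosomes in the nucleus, fell by 2.04 (SE 0.11, edgeR adjusted p = 2.88e-09) and *CASC2* by 0.91 (SE 0.17). The *HOXA* cluster antisense RNA *HOXA-AS2* rose by 1.64 (SE 0.25), the near-identical pair *CYTOR* and *MIR4435-2HG* by 1.53 (SE 0.23) and 1.45 (SE 0.19), and the epidermal lncRNA *TINCR* by 1.21 (SE 0.24), with edgeR adjusted p at most 0.000747. *CYTOR* and *MIR4435-2HG* arose by duplication and may share reads, so their separate levels are uncertain.

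**Figure D5:**
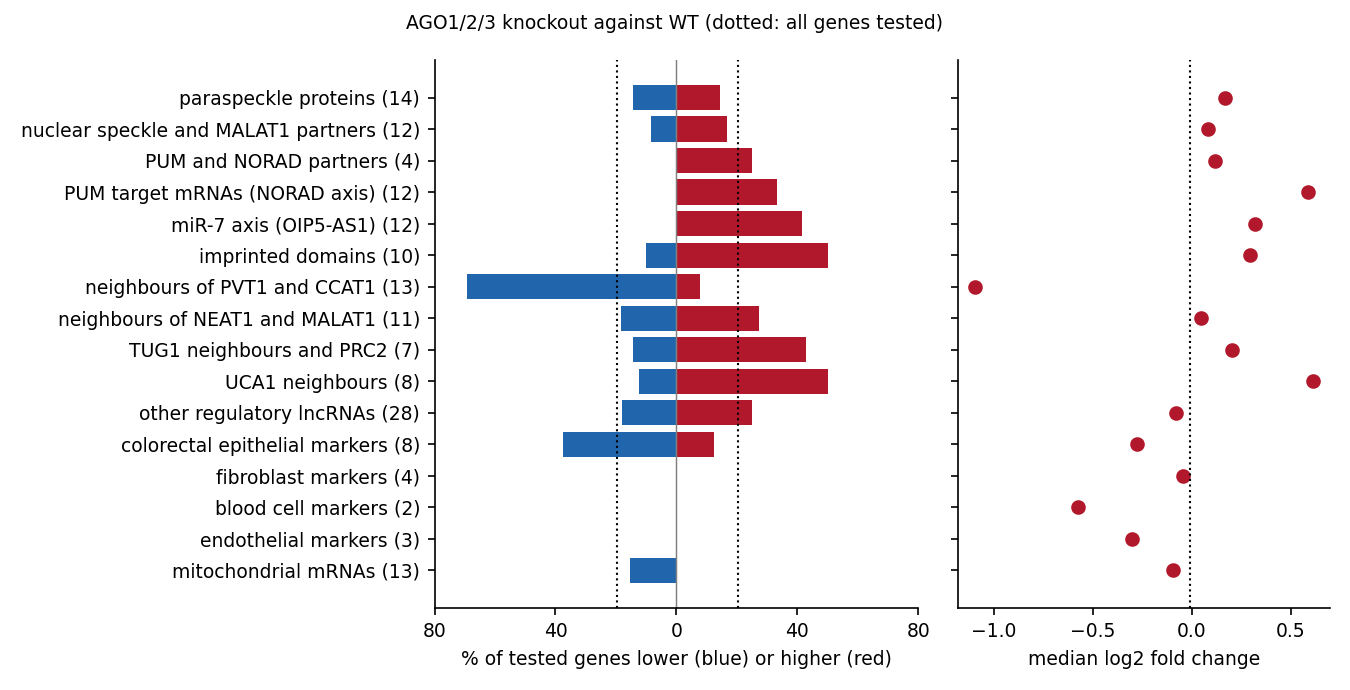
Share of genes of each companion list called higher or lower in *AGO1/2/3* knockout cells against WT, and the median log2 fold change of the list. Dotted lines give the values over all genes tested.

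Markers of cell types were read to check the line. The 8 epithelial markers summed to between 1405 and 2744 CPM in a sample, with the keratin gene *KRT8* most abundant. Of the 8, 3 fell in *AGO1/2/3* knockout cells, where 19.8% of all genes fell: the adhesion genes *CDH1* (-3.51, SE 0.26) and *EPCAM* (-1.74, SE 0.10) and the transcription factor gene *ELF3* (-3.21, SE 0.25), with edgeR adjusted p at most 1.2e-07. The same 3 fell in *AGO1/2* knockout cells (-1.66, -0.92 and -1.02), where 2 of the 8 rose (1 to 3 on leaving out single libraries), and 3 of the 8 fell in *AGO1* knockout cells, among them *CDH1* (-1.15) and *EPCAM* (-0.33). The count in *AGO1* knockout cells was 5 with counts scaled by totals alone and 1 to 5 over all alternatives. After *AGO2* knockout 1 rose and 1 fell (0 to 1 and 0 to 2 on leaving out single libraries). Shares of all genes higher and lower were 8.37% and 8.35% in the *AGO1/2* line. They were 3.17% and 5.50% in the *AGO1* line and 8.55% and 10.8% in the *AGO2* line. In *AGO1/2/3* knockout cells *KRT8* had 0.41 (SE 0.12, edgeR adjusted p = 0.0157), a call lost without WT replicate 1 or 2 or *AGO1/2/3* knockout replicate 2 or 3, under totals alone (0.27, edgeR adjusted p = 0.09996) or in a fit to 6 samples (0.35, edgeR adjusted p = 0.0647), and 2 of the 8 were higher without *AGO1/2/3* knockout replicate 1. Summed levels of 5 fibroblast markers were 11.6 to 30.9 CPM (most from *COL1A1*), of 5 blood cell markers 0.903 to 2.05 CPM (*PTPRC*), of 4 endothelial markers 1.60 to 3.94 CPM (*PECAM1*) and of 3 hepatocyte markers 0 to 0.405 CPM (*ALB*), with 1 hepatocyte marker at 0 in all samples. Among fibroblast, blood and endothelial markers tested, 0 were called by edgeR in the *AGO1/2/3* line in either direction. *COL1A1* was called lower in the *AGO1* (-0.96), *AGO2* (-1.17) and *AGO1/2* lines (-1.03), and in the *AGO2* line 1 more fibroblast and 1 endothelial marker were lower. Leaving out *AGO1/2* knockout replicate 1 or *AGO1/2/3* knockout replicate 3 gave 1 endothelial marker higher or 1 lower. In bulk RNA, fewer cells with an RNA and less of it per cell cannot be told apart, and the part of these levels in the lncRNA results was not tested.

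A test of whether *AGO1* loss came with the same change with and without *AGO2* was added after seeing the data. It draws on the *AGO2* line, where mode of quantification and genotype cannot be told apart. By edgeR, 3 of the 9 lncRNAs differed upward (*NEAT1* 1.65, *H19* 1.43, *UCA1* 2.17 log2 units) and 1 downward (*PVT1* -0.92), beside 11.5% and 8.26% of all genes.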

How the data were processed

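RNA from 15 samples of 5 HCT116 lines was sequenced as ribosome-depleted, stranded libraries. Reads were aligned by the authors (STAR, hg38), and Salmon was their tool for quantification. What they deposited, 1 file per sample, holds expected counts by gene, that is estimated counts without scaling for depth. The submitters' processing notes give STAR 2.5.3a and Salmon 0.11.0, other versions than the methods of the study, which name DESeq2 for testing. Counts were rounded, filtered with edgeR's filterByExpr and scaled by TMM, and a mean per line was fitted to all 15 samples with edgeR 4.0.16 in R 4.3.3. Genes with a Benjamini-Hochberg adjusted p at or under 0.05 over 22842 genes tested were called. The biological coefficient of variation was 0.152. Standard errors (SE) were derived from edgeR's test, as the absolute log2 fold change divided by the square root of its F statistic. Alternatives were DESeq2 1.42.0 (size factors, or its Wald test), scaling by total counts, dropping the filter, a stricter filter of 10 counts in each of the samples, the 6 samples of 2 lines alone, the replicate number as a block, and each sample left out. Genes were annotated from GENCODE v44 (57167 of 57875 identifiers found). Exon length came from that annotation, and bases of all exons of a gene were merged. Genes within 5 Mb whose mean reached 1 CPM gave the neighbourhood medians, with 2 Mb or all genes tested as alternatives.

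The rule for named genes took all members, *AGO1* to *AGO4*, up to 6 called genes per companion list by size of change in *AGO1/2/3* knockout cells, and for each member the 3 genes with the highest Pearson correlation of log2 CPM over 15 samples among those with a mean of at least 1 CPM. The members and the 17 lists were chosen with earlier results of these data known. The neighbours of *UCA1* in *AGO1* knockout cells, *IGF2* and *MYC* in *AGO1/2* knockout cells and the difference in *AGO1* loss were chosen with their values already seen. *KLF4*, *ZSWIM8* and *ASAP1* were named outside that rule, also with their values seen. The edgeR and DESeq2 fits of *AGO1/2/3* knockout against WT were tested on simulated data. The 8 eCLIP samples have no processed files here and were not used.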

Additional observations from a re-analysis of the deposited data

Results flagged for a closer look

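The log2 change with *AGO1* loss differed between lines that keep *AGO2* and lines that lack it for 4 of the lncRNAs. It was read by edgeR's test of the difference itself, chosen after seeing the data. Over all genes 11.5% differed upward and 8.26% downward. For *NEAT1* the difference was 1.65 log2 units (SE 0.43, adjusted p = 0.0141): its mean went from 1244 CPM in WT to 401 CPM in *AGO1* knockout cells, and from 442 CPM in *AGO2* to 447 CPM in *AGO1/2* knockout cells. For *UCA1* it was 2.17 (SE 0.31, edgeR adjusted p = 0.000301), with 105 CPM in WT against 20.6 in *AGO1* knockout cells, and 85.7 in *AGO2* against 75.3 CPM in *AGO1/2* knockout cells. *H19* differed by 1.43 (SE 0.29, edgeR adjusted p = 0.00356), from 3.37 CPM to 2.26 where *AGO2* is kept and from 2.92 CPM to 5.29 where it is lost. *PVT1* differed by -0.92 (SE 0.13, edgeR adjusted p = 0.000247), from 48.8 CPM to 55.8 with *AGO2* and from 50.2 CPM to 30.4 without it. Genes listed with the 4 differed too: 4 of 11 neighbours of *NEAT1* on 11q13 were higher (median 0.27) and 4 of 14 paraspeckle protein genes were lower (-0.47), 5 of 10 tested on 11p15.5, with *H19*, were higher (median 1.06), 5 of 8 neighbours of *UCA1* were higher (1.23) and 6 of 13 on 8q24, with *PVT1*, were lower (-0.56). Each genotype stands on 1 line, so line and genotype cannot be told apart here either. The *AGO2* line enters this difference, and its mode of quantification cannot be told apart from its genotype. These 4 calls held under the 21 alternatives run, none of which changed the mode of quantification.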

How the results depend on the processing

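Of 990 values of the lncRNAs under the alternatives to the planned comparisons, 918 kept direction and call, 40 lost a call, 16 gained one and 16 turned direction, each of the last among genes not called. For the difference in *AGO1* loss the counts of 189 values were 183, 0, 1 and 5. *NEAT1*, *OIP5-AS1*, *PVT1*, *UCA1* in *AGO1* knockout cells and *H19* in *AGO1/2/3* against *AGO1/2* knockout cells kept their calls throughout. Scaling by totals alone shifted the median over all genes by -0.12 in *AGO2* and -0.14 in *AGO1/2/3* knockout cells and by 0.12 for the difference in *AGO1* loss. Under it *OIP5-AS1* in *AGO1* knockout cells went from 0.00 to -0.092, *PVT1* in *AGO2* knockout cells from 0.04 to -0.079, *TUG1* in *AGO1/2* knockout cells from 0.08 to -0.010, *NORAD* in *AGO1/2/3* knockout cells from 0.09 to -0.059 and *KCNQ1OT1* in the difference from -0.07 to 0.056. The count of lncRNAs higher in *AGO1* knockout cells, 1, was 2 by DESeq2 or with at least 10 counts in every sample, 0 in the fit to 6 samples, and 1 to 2 on leaving out single libraries. The count lower in *AGO2* knockout cells, 1, was 2 without the filter and 1 to 2 on leaving out libraries. In *AGO1/2* knockout cells the 2 that rose were 0 under totals alone, 1 without the filter, 0 in the fit to 6 samples and 0 to 2 on leaving out libraries. In *AGO1/2/3* knockout cells the 2 that rose were 1 under totals alone, without the filter, with at least 10 counts or in 6 samples, and 1 to 2 on leaving out libraries. Against *AGO1/2* knockout cells the 2 higher were 1 to 3. The 1 lower in the difference was 2 by DESeq2. Leaving out single libraries gave *MALAT1* ranges of -0.48 to 0.31 in *AGO1* and -0.31 to 0.49 in *AGO1/2/3* knockout cells, and -0.27 to 0.52 in the difference. *NORAD* ranged from -0.19 to 0.035 in *AGO2* and -0.037 to 0.19 in *AGO1/2/3* knockout cells, and from -0.059 to 0.17 in the difference. *OIP5-AS1* in *AGO1* knockout cells ranged from -0.10 to 0.24 and *PVT1* in *AGO2* knockout cells from -0.022 to 0.085. *AGO3* ranged from -0.15 to 0.041 in *AGO2* and from -0.090 to 0.10 in *AGO1/2* knockout cells. Blocking on replicate number took *MALAT1* in *AGO1/2/3* knockout cells from -0.03 to 0.0016, and 44 of 45 values of the lncRNAs kept direction and call. Outside them, the block ended the calls of *KCNQ1* in *AGO1/2/3* knockout cells (0.76, edgeR adjusted p = 0.0643) and *AGO4* in *AGO2* knockout cells (-0.70, edgeR adjusted p = 0.0625). Samples of the same number did not pair: the mean r of their residuals was -0.00669 over 30 pairs, 5 of them over 0.1, against 0.00333 for different numbers. The neighbourhood medians shifted by their SD over replicates or more in 19 of 36 cases with 2 Mb and in 13 of 36 with all genes tested. The cause of these shifts was not tested.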

Other observations

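Mitochondrial mRNAs took between 6.63% and 10.2% of all counts in a sample, so they weigh on any scale relative to totals. In *AGO1* knockout cells 5 of the 13 were called higher by edgeR and 0 lower, at a median log2 fold change of 0.32, beside 3.17% of all genes higher. The count ran from 0 to 7 over the alternatives and was 1 without WT replicate 1 or *AGO1* knockout replicate 2 and 3 without *AGO1* knockout replicate 3. In *AGO1/2/3* knockout cells, where 20.3% of all genes rose and 19.8% fell, neither count exceeded those shares. There 0 were higher and 2 lower, at a median of -0.10, and 6 were lower with counts scaled by totals alone, at a median of -0.24. The 2 were *MT-ND6* (-0.79, SE 0.23, edgeR adjusted p = 0.0133) and *MT-ATP8* (-0.33, SE 0.10, edgeR adjusted p = 0.0192), and 1 was left without WT replicate 1 or *AGO1/2/3* knockout replicate 2.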
